A study of Homo sapiens with 2 samples.

Results

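BT-474 is an established human breast cancer cell line in which the HER2 gene ERBB2 is amplified and in which oestrogen and progesterone receptor genes are expressed. It was profiled with 5 other breast cancer lines by droplet 3′ single-cell RNA sequencing, in a study of surface markers that separate subpopulations within cancer cell populations. The BT-474 cells were the barcodes of the first of 6 oligo groups that had at least 1000 UMIs, at least 500 genes, at most 20% of UMIs in mitochondrial genes and at least 80% of their multiplexing-oligo UMIs from the oligo CMO303. This rule kept 2231 of 2954 barcodes (75.5%), out of 14866 cells kept by the same rule over all 6 groups of 17605 barcodes. Each line was 1 culture for which the labels name no treatment, stained with its own oligo, and BT-474 was mixed with MDA-MB-231 and MDA-MB-453 in 1 pool and capture, whereas HCC38, Hs578T and MDA-MB-436 shared the other. With 1 culture per line there was no replicate, so no test across cultures was possible, cells are not used as replicates, and all intervals are 95% intervals that cover counting error only.

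Luminal breast cancers keep the transcription factors of the milk-duct lining, among them GATA3 and FOXA1, and many depend on the oestrogen receptor ESR1, which switches on genes such as PGR, GREB1 and TFF1. ERBB2 encodes a receptor tyrosine kinase that pairs with ERBB3 and EGFR, and it is amplified on chromosome arm 17q together with its neighbours in a subset of breast cancers. BT-474 is known for carrying both features, and for further amplified stretches on 17q and 20q.

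Since no label ties an oligo to a line, lines were read from markers. The BT-474 group had the highest level of all 6 of its markers (ESR1, PGR, ERBB2, BCAS1, SCGB2A2 and TFF3), with a sum of 2583 CPM (UMIs per 1000000 of the group's summed UMIs) against 6.55 to 207 CPM in the other 5 groups. The other groups are called MDA-MB-231-like, MDA-MB-453-like, HCC38-like, Hs578T-like and MDA-MB-436-like, and led 4 of 4, 3 of 5, 4 of 5, 6 of 6 and 5 of 6 of the detected markers of those lines. Immune markers summed to 0.885 CPM in BT-474 (5 of 8 at 0) and fibroblast and endothelial markers to 1.57 CPM (6 of 9 at 0). When each BT-474 cell was compared with the 6 summed profiles, 2230 of 2231 were closest to their own and 1 to the MDA-MB-231-like profile. The BT-474 profile was summed from these same cells, so this match does not check the name of the group. Genes of another line of the same capture were present in 13 of the cells, and Scrublet marked 13 as doublets. Genes of the lines of the other capture were not searched for. The cells shared 2 barcode sequences with the HCC38-like and 1 with the MDA-MB-436-like group. The median BT-474 cell had 28472 UMIs and 5327 genes, and the group sums were 68.9 M UMIs in BT-474 and 72.1 to 91.9 M UMIs in the others. Its mitochondrial share was the highest of the 6 groups, with a median of 14.6% against 5.88% to 9.86%, and 687 BT-474 barcodes (23.3%) were lost to the 20% limit, with the cells nearest to it at 19.997% inside and 20.01% outside. The nearest oligo shares were 80.04% inside and 79.95% outside.

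The genes that stood furthest above every other line were secreted luminal proteins, the progesterone receptor and genes of chromosome arms 17q and 20q. Of 2686 genes at 50 CPM or more in BT-474, 53 (1.97%) were at least 4-fold above the highest of the other 5 groups on the scale of log2(CPM + 1). The same rule gave 18 to 77 genes in each of the other groups. TCN1, a secreted vitamin B12 binding protein, led them at 1658 CPM in BT-474 (interval 1649 to 1668) whereas the groups of its own capture had 13.4 CPM (MDA-MB-453-like) and 12.8 CPM (MDA-MB-231-like) and the other 3 had 0.0544, 0 and 0.0673 CPM (HCC38-like, Hs578T-like and MDA-MB-436-like). It was thus 124-fold higher than in the next group (117 to 132). SCGB2A2, which encodes the secretoglobin mammaglobin A, was at 193 CPM and 78.8-fold above the next group (68.2 to 91.6), with no UMI in the 3 groups of the other capture, where a count of 0 allows up to 0.0327 to 0.0416 CPM (3 UMIs per group). PGR was at 171 CPM and 76-fold above the next group (65.3 to 89). These 3 genes were near 0 outside the capture of BT-474 and slightly above 0 within it. Over the 15 genes at 50 CPM or more in BT-474 and at most 0.5 CPM in the other capture, the median level relative to BT-474 was 1.31% (0.769% to 10.3%, MDA-MB-231-like) and 3.19% (0.806% to 151%, MDA-MB-453-like). In the MDA-MB-453-like group SPDEF, TOX3, NCAM2 and AC093001.1 were at 151%, 85.7%, 69.4% and 48.8% of BT-474. How much of the low levels is free RNA of the shared capture was not tested.

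After these came BCAS1 (324 CPM, 44.5-fold above the next group), IKZF3 (121 CPM, 55.6-fold), the secreted protein FAM3B (53.1 CPM, 77.4-fold), the axonal transport motor KIF1A (112 CPM, 39-fold) and the trefoil factor TFF3 (1064 CPM, 28.4-fold). Neuronal adhesion and carcinoma surface genes were in the same set: NRCAM was 30.4-fold and CEACAM6 31.3-fold above the next group, and PSCA 12.9-fold at 80.8 CPM. The noncoding gene THRA1/BTR, the exchange factor PREX1, FBXL20, the transcription factor ASCL2, the dehydrogenase DHRS2 and the kinase inhibitor PKIB completed the 20 highest with MUCL1, RPL23 and RPL19. Of the 53 genes 25 lay on chromosome 17 and 7 on chromosome 20, and 21 of those on chromosome 17 were within 3 Mb of ERBB2. Of 10894 measured genes with a position, 655 were on chromosome 17 and 316 on chromosome 20. LASP1, HEATR6 and SIAH2 lay just under the 4-fold rule, with log2 ratios to the next group of 1.97, 1.96 and 1.95.

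**Figure D1:**
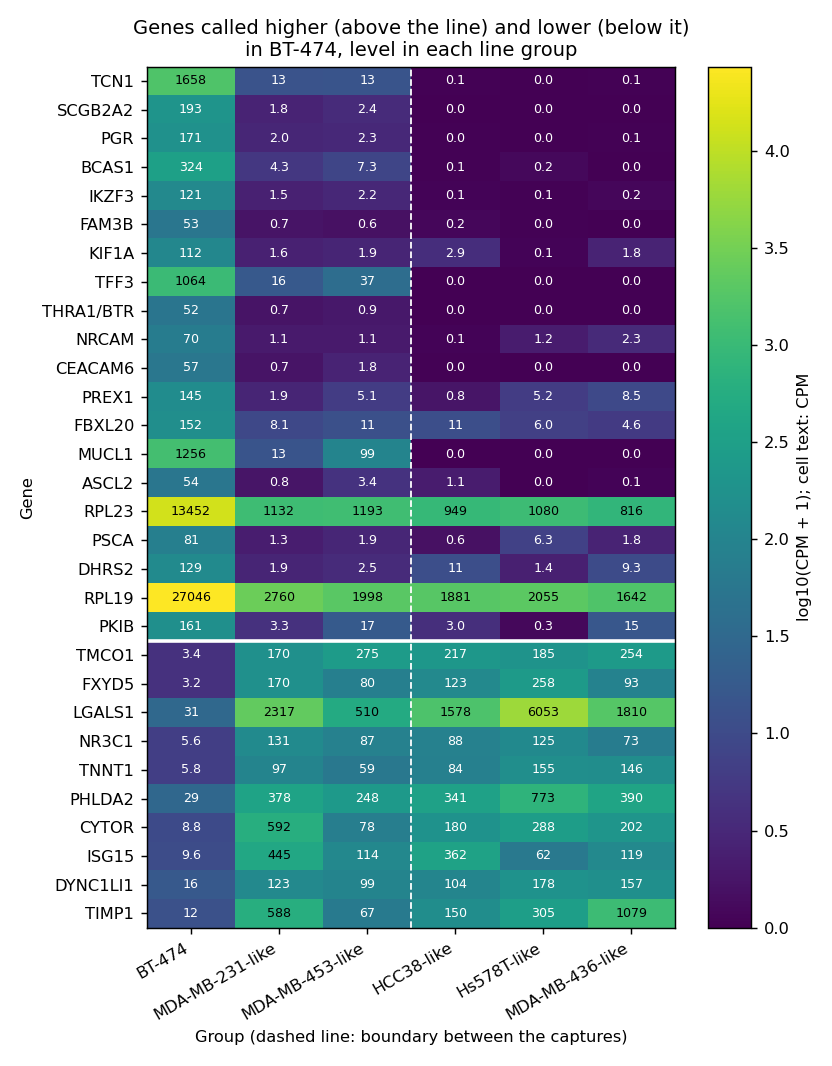
Level of the 20 genes furthest above and the 10 furthest below all other groups in BT-474, one row per gene and one column per line group; colour is log10(CPM + 1) and the printed values are CPM. TCN1 stands at 1658 CPM in BT-474 and at most 13.4 CPM elsewhere, and TMCO1 at 3.37 CPM against 170 to 275 CPM.

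Secreted luminal proteins were measured for 17 of 28 listed genes, of which 12 were at least 2-fold above the mean of the other 5 groups and 2 at least 2-fold below it, with a median log2 ratio of 2.17. Over all 10920 measured genes (10 CPM or more in any group) the shares were 10.7% higher and 21.3% lower, and the median was -0.28. Counts for the lists that follow are over their measured members. Against the other 2 lines of its own capture, where 10% of genes were higher and 17.4% lower, the list's counts were 11 and 2. MUCL1, a small mucin-like secreted protein of breast and skin, was at 1256 CPM in BT-474, with 98.9 CPM (MDA-MB-453-like) and 13.4 CPM (MDA-MB-231-like) in its own capture and 0 CPM in the other. TFF1 was at 1040 CPM with 136 CPM in the MDA-MB-453-like group. AGR2, a folding factor of secreted proteins, was higher in the MDA-MB-453-like group (1036 CPM) than in BT-474 (509 CPM), so the luminal secretory genes did not all lead in BT-474.

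SCGB2A2, TCN1 and MUCL1, the 3 secreted genes with the highest cell-to-cell variation apart from APOE, which rested on 3 cells, are shown here with the 250 bases before and 50 bases after their start, from RefSeq on GRCh38.p14. SCGB2A2 lies at chr11:62269908-62270207 (plus strand), TCN1 at chr11:59866438-59866737 (minus strand) and MUCL1 at chr12:54854266-54854565 (plus strand). Capitals mark a match to 1 of 5 motifs.
SCGB2A2: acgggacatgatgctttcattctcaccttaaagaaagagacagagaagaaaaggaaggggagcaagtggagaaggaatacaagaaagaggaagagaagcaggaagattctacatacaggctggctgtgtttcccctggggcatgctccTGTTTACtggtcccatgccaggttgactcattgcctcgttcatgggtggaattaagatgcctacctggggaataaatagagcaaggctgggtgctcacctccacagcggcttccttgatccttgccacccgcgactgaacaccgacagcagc
TCN1: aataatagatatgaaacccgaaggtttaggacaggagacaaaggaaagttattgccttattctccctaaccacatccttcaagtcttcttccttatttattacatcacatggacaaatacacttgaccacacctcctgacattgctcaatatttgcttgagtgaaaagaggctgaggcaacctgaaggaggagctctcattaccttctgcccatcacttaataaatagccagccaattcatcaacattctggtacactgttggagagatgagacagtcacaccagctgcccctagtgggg
MUCL1: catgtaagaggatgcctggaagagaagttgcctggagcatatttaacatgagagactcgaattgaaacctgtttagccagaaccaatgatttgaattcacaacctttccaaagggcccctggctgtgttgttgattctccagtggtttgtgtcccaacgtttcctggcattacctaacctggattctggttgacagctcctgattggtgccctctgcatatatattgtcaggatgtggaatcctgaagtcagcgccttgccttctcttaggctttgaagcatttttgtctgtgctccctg
The motifs searched were the oestrogen response element GGTCANNNTGACC, its half-site AGGTCA, the FOXA motif TGTTTAC and the GATA motif AGATAA, each on both strands, and TATAAA on the given strand. A response element with A before it or T after it also holds the half-site. Of 35116 promoters in the table, 0.057%, 13.8%, 3.42%, 10.3% and 7.33% held them. The only match in the 3 windows was the FOXA motif of SCGB2A2, which begins 102 bases before the start.

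Hormone receptor genes and their targets were highest in BT-474 in most cases, and several luminal transcription factors were higher still in the MDA-MB-453-like group. Of 23 measured oestrogen genes (30 listed) 15 were at least 2-fold above the mean of the other 5 groups and 0 below it, with a median log2 ratio of 1.61. In all, 13 were highest in BT-474 of all 6 groups, as were 11.7% of all measured genes. The 13 include ESR1, PGR and TFF3, markers by which the group was named. ESR1 itself was a low transcript, at 23.3 CPM in BT-474 and at most 0.41 CPM elsewhere. Its targets PGR and GREB1 were 106-fold and 22-fold above the mean of the others, the prolactin receptor PRLR was at 165 CPM against 66.1 CPM in the next group, and AGR3 at 36.1 CPM against 0.67 CPM. Of 19 luminal transcription factors 16 were higher and 1 lower (median 2.65). FOXA1 had 192 CPM in BT-474, 284 CPM (MDA-MB-453-like) and at most 6.25 CPM elsewhere, and SPDEF and GATA3 followed the same order. ELF3 and ELF5, epithelial ETS factors, led in BT-474 (127 and 11.1 CPM).

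ERBB2 (chromosome 17, 39687914 to 39730426, plus strand, GRCh38) was at 808 CPM in BT-474 (801 to 815), against 157 CPM (MDA-MB-453-like), 29.7 CPM (MDA-MB-231-like), 23.9 CPM (HCC38-like), 8.16 CPM (Hs578T-like) and 6.46 CPM (MDA-MB-436-like). BT-474 stood 5.13-fold above the next line (5.03 to 5.23). Of 21 measured 17q12 genes (32 listed) 18 were at least 2-fold above the mean of the others and 1 below it, with a median log2 ratio of 3.35. IKZF3, a lymphoid transcription factor, was 75.1-fold, the adaptor GRB7 28.1-fold, STAC2 21.7-fold and the adrenaline-synthesis enzyme PNMT 20.4-fold above that mean. Fusions of VAPB with IKZF3 and of ACACA with STAC2 have been reported in BT-474, and counts of 3′ ends do not show whether a transcript is a fusion. The gene below was NR1D1 (1.09 CPM).

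In the ERBB family several ligands were low. Of 17 measured receptors, ligands and adaptors 3 were at least 2-fold above the mean of the others (ERBB2, GRB7 and ERBB3) and 7 below it. ERBB3, the partner that binds neuregulins, was at 62.4 CPM, below the 95 CPM of the MDA-MB-453-like group. EGFR was at 7.11 CPM against 1.81 to 116 CPM, NRG1 at 0.813 CPM, EREG at 0.987 CPM and HBEGF at 1.13 CPM. AREG, a ligand of EGFR and a known oestrogen target, was at 55.9 CPM, between 2.37 and 469 CPM elsewhere.

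A pair of ribosomal protein genes lies in the same stretch and took a large share of the BT-474 transcripts. RPL19 was at 27046 CPM, or 2.7% of all UMIs, against 1642 to 2760 CPM in the other groups, and RPL23 at 13452 CPM against 816 to 1193 CPM. Together they made 21.4% of the UMIs of 78 ribosomal protein genes in BT-474 and 1.46% to 2.46% in the others. Over the 78 genes the median log2 ratio was -0.03, and 3 were at least 2-fold higher, the other being RPS3 (5441 CPM against 1192 to 2516 CPM). The ribosomal protein genes summed to 18.9% of UMIs in BT-474 and 13.2% to 16.9% in the others.

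Along the genome, genes above the other lines were gathered on chromosomes 17 and 20. In running medians over 15 neighbouring measured genes, 357 of 10572 windows (3.38%) lay at least 1 log2 unit above the median of all genes. Of these windows 116 were on chromosome 17 and 60 on chromosome 20, which held 655 and 316 of the 10894 genes. The highest window, from LASP1 to IKZF3 (38869859 to 39864188), had a median of 3.89, and all 15 of its genes were at least 2-fold above the mean of the other 5. Raised genes went on proximally to ACACA, the fatty acid synthesis enzyme, which had a log2 ratio of 2.22, with ARHGAP23 at -2.05 among them. Beyond ACACA the ratios were 0.00 for AATF, -1.03 for LHX1, 0.26 for DHRS11, 0.80 for GGNBP2, 0.89 for PIGW and 1.14 for ZNHIT3. On the distal side THRA had 3.20, NR1D1 -1.41, MSL1 0.20, CASC3 0.43, WIPF2 0.48, CDC6 -0.999, RARA 1.57 and TOP2A, which lies 0.701 Mb from ERBB2 and encodes a topoisomerase of dividing cells, -0.72. Among 43 window centres from DHRS11 to NR1D1 37 genes were at least 2-fold higher.

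Further stretches on chromosome 17 ran from HOXB13 to UTP18 (27 of 37 genes at least 2-fold higher, highest median 1.76) and from VEZF1 to BCAS3 (23 of 27 genes, 2.19). Of 20 measured 17q23 genes (25 listed) 17 were higher and 0 lower (median 2.14). YPEL2 was 16-fold, SMG8 7.11-fold, APPBP2 5.64-fold and the ubiquitin ligase TRIM37 5.2-fold above the mean of the others, and RPS6KB1, the S6 kinase gene often amplified there, 4.59-fold. On chromosome 20, 14 of 26 measured 20q13 genes (34 listed) were higher and 0 lower (median 1.10), with BCAS1 144-fold, PREX1 32.5-fold, ATP9A 11.2-fold and the nuclear receptor coactivator NCOA3 8.48-fold above the mean. The highest window there ran from KCNG1 to RBM38 (median 2.61).

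A separate stretch of chromosome 20 began between AHCY (34280268 to 34311802) and ITCH (34363235 to 34511393). CHMP4B, RALY, EIF2S2 and AHCY had log2 ratios of -1.79, -1.59, -2.25 and -1.78, and the next genes ITCH, DYNLRB1, MAP1LC3A and PIGU had 1.85, 2.12, 2.56 and 1.92. In CPM, AHCY was at 28.1 in BT-474 against 65.7 to 152 in the other groups, and ITCH at 174 against 36.1 to 74.9. The genes on both sides of this edge were thus outside the range of the 5 other lines in opposite directions. From ITCH to UQCC1 13 of 14 genes were at least 2-fold higher, PROCR being the exception. Lower windows stood out on the same arm: from EPB41L1 to BLCAP the median was -1.61. The other chromosomes with windows above the limit were led by 11 (1.54, INPPL1 to UCP2), 4 (1.39, AREG to CCNG2) and X (1.39). DNA copy number was not measured in the files used here, so amplified and more strongly transcribed genes cannot be told apart.

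**Figure D2:**
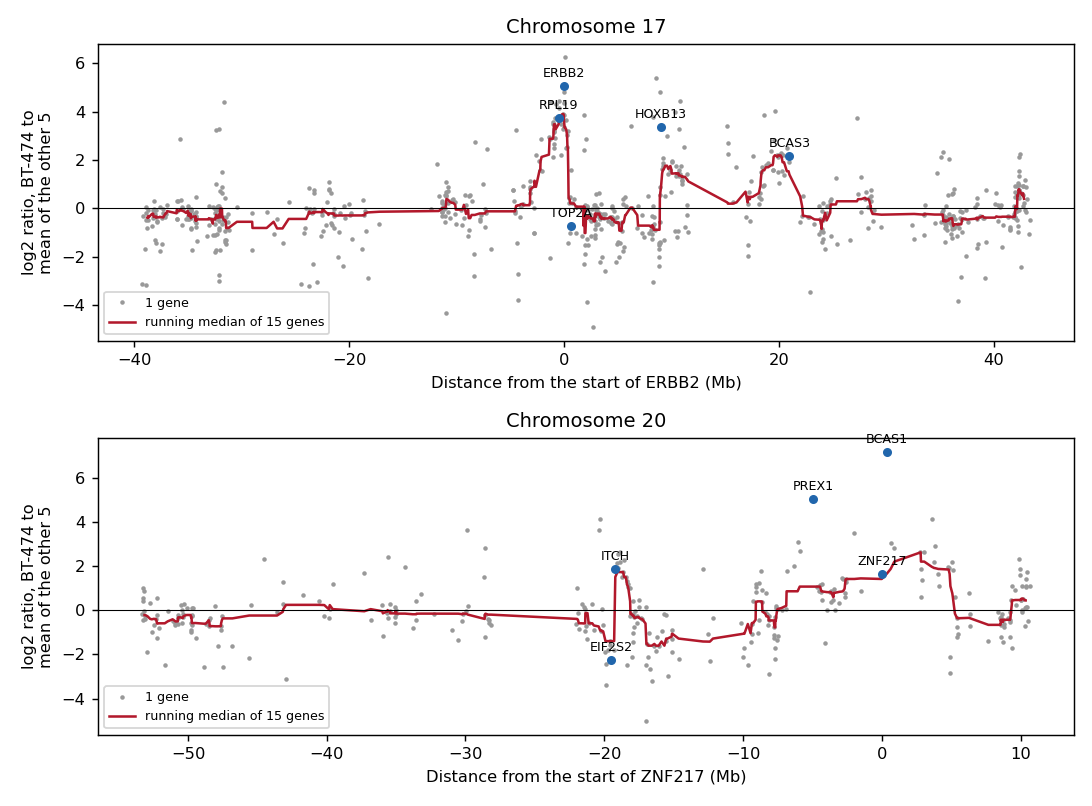
Log2 ratio of BT-474 to the mean of the other 5 groups for each measured gene (grey points) and its running median over 15 genes (red line), against the distance in Mb from the start of ERBB2 on chromosome 17 and of ZNF217 on chromosome 20; named genes are blue. The median peaks at 3.89 at STARD3, just proximal to ERBB2, where it is 3.63, and drops beyond THRA, and on chromosome 20 it jumps from below 0 to above 1 at ITCH.

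Fewer genes passed the 4-fold rule below every other line than above, under unlike CPM minimums. At any fold, 2703 of 10920 measured genes (24.8%) were below all other groups and 1275 (11.7%) above them. Of 1812 genes at 50 CPM or more in all other groups, 15 (0.828%) were at least 4-fold lower in BT-474 than in the lowest of them, and the same rule gave 0 to 13 genes in each of the other groups. TMCO1, a calcium channel of the endoplasmic reticulum (chromosome 1, 165724293 to 165827755), was at 3.37 CPM in BT-474 and at 170 CPM (MDA-MB-231-like), 275 CPM (MDA-MB-453-like), 217 CPM (HCC38-like), 185 CPM (Hs578T-like) and 254 CPM (MDA-MB-436-like). It was 50.4-fold below the lowest of them (44.3 to 57.6). Its neighbours were not low: MGST3, ALDH9A1, UCK2 and POGK had log2 ratios of 0.69, 0.54, -0.13 and 0.16. FXYD5, a regulator of the sodium pump, was 24.8-fold below the lowest other line, the galectin LGALS1 16.6-fold, the glucocorticoid receptor NR3C1 13-fold, TNNT1 10.2-fold, PHLDA2 8.48-fold, the noncoding CYTOR 8.86-fold, the ubiquitin-like ISG15 6.44-fold and the protease inhibitor TIMP1 5.84-fold. With all groups held to at most 10% mitochondrial UMIs, which left 208 BT-474 cells, the log2 ratio of TIMP1 to the lowest other line was -1.82, short of 4-fold.

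DYNC1LI1, a subunit of the dynein motor on chromosome 3, differed from TMCO1 in that its neighbours were low with it. DYNC1LI1 was at 16.3 CPM against 98.7 to 178 CPM, and CMTM7, CMTM6, GLB1 and CRTAP near it had log2 ratios of -2.19, -2.72, -1.93 and -2.01. The genes next to that run, CMTM8 and UBP1, had 0.66 and -0.52. A fusion of GLB1 with CMTM7, both in the run, has been reported in BT-474. Over the 60 nearest neighbours of the 15 genes, 19 were at least 2-fold below the mean of the others, a larger share than the 21.3% of all measured genes, with a median log2 ratio of -0.38 against -0.28 for all genes. ESD, MAP3K20 and SHCBP1 lay just outside the 4-fold rule.

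Epithelial genes were high and mesenchymal genes low. Of 28 epithelial junction and simple keratin genes 26 were at least 2-fold above the mean of the other 5 and 0 below it (median 2.40). E-cadherin CDH1 was at 204 CPM, followed by 91.6 CPM (HCC38-like) and 20.5 CPM (MDA-MB-453-like), and KRT19 and KRT8 were at 2547 and 1306 CPM. Of 30 mesenchymal genes 28 were lower and 1 higher (median -3.52), among them CALD1, TPM2 and MSN at 51-fold, 50.2-fold and 32.5-fold below the mean. These 3 were as low in the MDA-MB-453-like group (2.73, 0.583 and 3.1 CPM), and against the same capture alone the medians were 1.35 for the epithelial and -1.52 for the mesenchymal list. The exception was TWIST1, a transcription factor of mesenchymal cells, at 48.5 CPM in BT-474, 72.6 CPM in the Hs578T-like, 42.6 CPM in the MDA-MB-436-like and at most 4.56 CPM in the other groups. TWIST1 UMIs were spread over the cells (35.9% of cells at 10000 UMIs). Of 17 basal genes 10 were lower and 1, KRT15, higher (41.2 CPM), and KRT81 was 22.2-fold lower. Against the same capture alone the basal median was -0.26, so its low value rests on the other capture.

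Surface antigens were mixed, with 8 of 19 higher and 4 lower (median 0.64). CEACAM6, PSCA, CD24 and NECTIN4 were 41.9-fold, 27.9-fold, 13-fold and 6.83-fold above the mean of the others, and CD44, an adhesion receptor, 14.3-fold below it at 7.92 CPM.

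Genes of antigen presentation, interferon response and NF-kB signalling were low. Of 18 antigen presentation genes 13 were at least 2-fold below the mean and 1 above it (median -1.31), with HLA-B at 19.3 CPM in BT-474 against 7.2 to 576 CPM and B2M at 239 CPM against 701 to 1472 CPM. B2M, the light chain that all class I molecules need, was thus below the range of the other 5 lines, and HLA-B was not. Of 29 interferon genes 20 were lower and 1, MX2, higher (14 CPM). Among 21 NF-kB and cytokine genes 16 were lower and 0 higher (median -2.24), with IL32 22.3-fold and PTX3 9.64-fold below the mean. Of 24 metallothionein and NRF2 target genes 20 were lower and 0 higher (median -1.66), with MT1E at 4.44 CPM and AKR1C1 at 0.116 CPM. MT1E and AKR1C1 were also low in the MDA-MB-453-like group, at 6.25 and 0.278 CPM.

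Among metabolic and stress lists, 13 of 26 hypoxia and glycolysis genes were lower and 0 higher (median -1.04), with lactate dehydrogenase LDHA at 256 CPM against 418 to 1425 CPM. Fatty acid and cholesterol synthesis stood near the other lines (4 of 26 higher, 2 lower, median 0.10), and its highest members were FADS2 at 5.09-fold and the 17q gene ACACA at 4.66-fold above the mean. Of 24 p53 targets 7 were higher and 4 lower (median 0.40), led by the antiproliferative BTG2 at 85.9 CPM against 0.547 to 23 CPM and the cell death gene BBC3 at 35 CPM against 2.32 to 4.48 CPM. PPM1D, a p53 target that lies in 17q23, was 3.74-fold above the mean. Of 29 heat shock and immediate early genes 3 were higher and 3 lower, with FOSL1 18-fold lower, and of 24 genes of the unfolded protein response 3 were higher and 8 lower, with SLC7A11 20.6-fold lower.

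**Figure D3:**
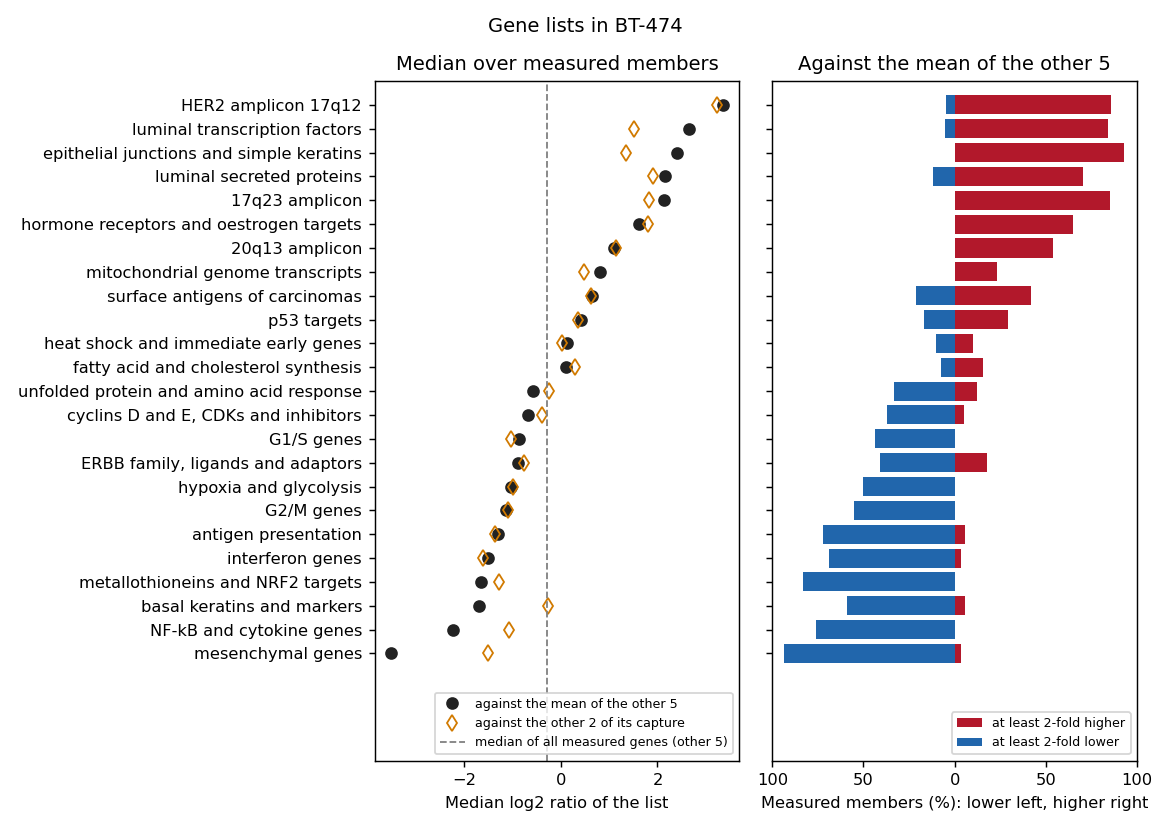
Left, median log2 ratio of BT-474 over the measured members of each of the 24 gene lists, against the mean of the other 5 groups (dots) and of the other 2 groups of its capture (diamonds), with the median of all genes dashed; right, the share of measured members at least 2-fold higher (red) or lower (blue) against the other 5. The 17q12 list lies highest at 3.35 and the mesenchymal list lowest at -3.52.

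Cell cycle genes were low in BT-474, and fewer of its cells carried MKI67 and TOP2A than in the other lines. Of 48 G1/S genes 21 and of 56 G2/M genes 31 were at least 2-fold below the mean of the others, and 0 of either list above it (medians -0.87 and -1.14). NUSAP1, a spindle protein, was at 42.5 CPM against 218 to 379 CPM, MKI67, the Ki-67 antigen, at 61.1 CPM against 195 to 414 CPM, and the S-phase factor E2F1 at 6.98 CPM against 28.4 to 59.1 CPM. After thinning every cell to 10000 UMIs (10 BT-474 cells were shallower and dropped), the median cell had 15 G2/M UMIs against 49 to 89 in the other groups, and MKI67 was seen in 25.7% of BT-474 cells against 63.1% to 79%. The 95th percentile was 152 UMIs against 167 to 246. The low level moved with the mitochondrial share: with all groups held to at most 10% mitochondrial UMIs the G2/M median was -0.35, and the part of that share in the result was not tested. Among cyclins, CDKs and their inhibitors 7 of 19 were lower and 1 higher, with RBL1, a relative of the retinoblastoma protein, 9.33-fold lower. RBL1 and E2F1 lie in low stretches of chromosome 20, with running medians of -1.61 and -1.40 around them. The part of position in their low levels was not tested. Of the 13 transcripts of the mitochondrial genome 3 were at least 2-fold higher and 0 lower, the 3 being MT-CYB, MT-CO3 and MT-CO2.

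Among BT-474 cells, the genes with the highest dispersion ratios included secreted proteins, nuclear RNAs, mitochondrial transcripts and cell cycle genes. The dispersion ratio used here is the variance over the mean of a gene's UMIs in 2221 thinned cells, divided by a running median. That median was taken over genes next to it in order of mean, so that 1 is typical of most genes. Among the most abundant genes the running median rose little with the mean. It was 2.30 for PTMA at 36.1 UMIs and 2.57 for RPL19 at 277 UMIs. Whether a high level alone raised the ratios of such genes was not tested. The ratio was at least 2 in 109 of 7700 genes (1.42%), and 25 of these were on the G1/S or G2/M lists. Of 6 mesenchymal genes abundant enough for the ratio, 4 were at 2 or more, all low in BT-474. These were CAV1 (3.12), LGALS1 (3.10), VIM (2.64) and S100A4 (2.21). The first 3 had 99th percentiles of 2, 3 and 4 UMIs and maxima of 13, 20 and 26. Their means in the MDA-MB-231-like group of the same capture were 15.6, 23.9 and 20.3 UMIs. Whether barcodes with another line's RNA raised these ratios was not tested. The interferon gene ISG15 (6.16) also passed, but its 99th percentile was 1 UMI and its maximum 35, and few cells set its ratio. The ribosomal genes RPL19 (6.32) and RPL23 (5.95) passed at means of 277 and 135 UMIs. RPL19 had ratios of 0.651 to 3.20 in the other groups, at 16.4 to 27.1 UMIs. Thinned to 5000 UMIs, 50 genes reached 2, and the ratios of SCGB2A2, TCN1 and MUCL1 were 25.9, 27.8 and 16.2. The highest values were APOE 71.1, MALAT1 51, SCGB2A2 48.4, TCN1 42.5, MUCL1 24.4, MT-CO2 11.4, HIST1H4C 10.95, IGFBP5 8.8, NEAT1 8.2 and CENPF 7.26. APOE rested on 3 cells, which held 33.5%, 27.8% and 22.8% of its UMIs. MALAT1, a nuclear noncoding RNA, was uneven in the other lines too, with ratios from 12.7 (Hs578T-like) to 32.7 (MDA-MB-453-like).

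**Figure D4:**
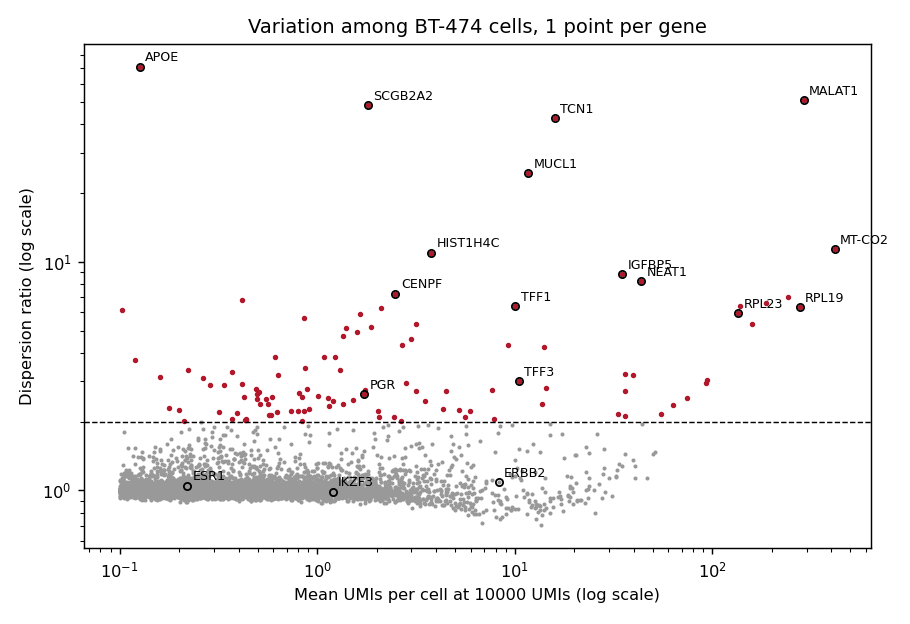
Dispersion ratio against mean UMIs per cell for 7700 genes over 2221 BT-474 cells thinned to 10000 UMIs, both axes logarithmic; red points lie at 2 or above (dashed). SCGB2A2, TCN1 and MUCL1 lie far above the cloud, and ERBB2, IKZF3 and ESR1 lie within it.

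SCGB2A2 UMIs were present in 22.6% of the thinned cells (20.8% to 24.4%; 34.4% unthinned), and the highest 10% of cells held 91.8% of them. Its 95th percentile was 8 UMIs per 10000, its 99th 38.6 and its maximum 258, and in the lines of the same capture 1.31% and 2.3% of cells had a UMI. TCN1 was present in 47.6% of cells (45.5% to 49.7%; 61% unthinned), with a median of 0, a 95th percentile of 101 and a maximum of 347 UMIs. The share of TCN1-positive cells was 9.02% (MDA-MB-231-like) and 11.2% (MDA-MB-453-like) in the same capture, in groups whose median depths were 26165 and 20274 UMIs. MUCL1 had a median of 3 UMIs, a 95th percentile of 55 and a maximum of 263, and 75.6% of cells had a UMI (88.3% unthinned), against 11% (MDA-MB-231-like) and 26.6% (MDA-MB-453-like). The highest 10% of cells held 69.5% of TCN1 and 57.4% of MUCL1 UMIs. In these 3 genes a small part of the cells held most of the transcripts, as the plot of levels across cells shows. TFF3, in contrast, was in 98.3% of cells with a 5th percentile of 1, a median of 9 and a 95th percentile of 24 UMIs. Uneven MUCL1 was not particular to BT-474. Its dispersion ratio was 51.4 in the MDA-MB-453-like group and 24.4 in BT-474, and that of TFF1 was 35.1 and 6.38.

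The hormone receptors and HER2 were spread differently. ERBB2 was in 99.7% of cells with a 5th percentile of 3, a median of 8 and a 95th percentile of 16 UMIs, and a dispersion ratio of 1.09. PGR had a ratio of 2.63 (1.89 when thinned to 5000 UMIs) with 60.4% of cells positive, a median of 1 and a 95th percentile of 6 UMIs, and ESR1, at 0.22 UMIs per cell, 1.05. Of the 20 genes of the 17q12 list with a mean of at least 0.1 UMIs 1 had a ratio of at least 2, and the list's median was 1.01. The 1 was RPL19 (6.32), whose mean of 277 UMIs may have raised its ratio, which was not tested. PSCA and CEACAM6 had 2.23 and 2.14, BCAS1 2.73, and KIF1A and IKZF3 0.98 and 0.99.

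**Figure D5:**
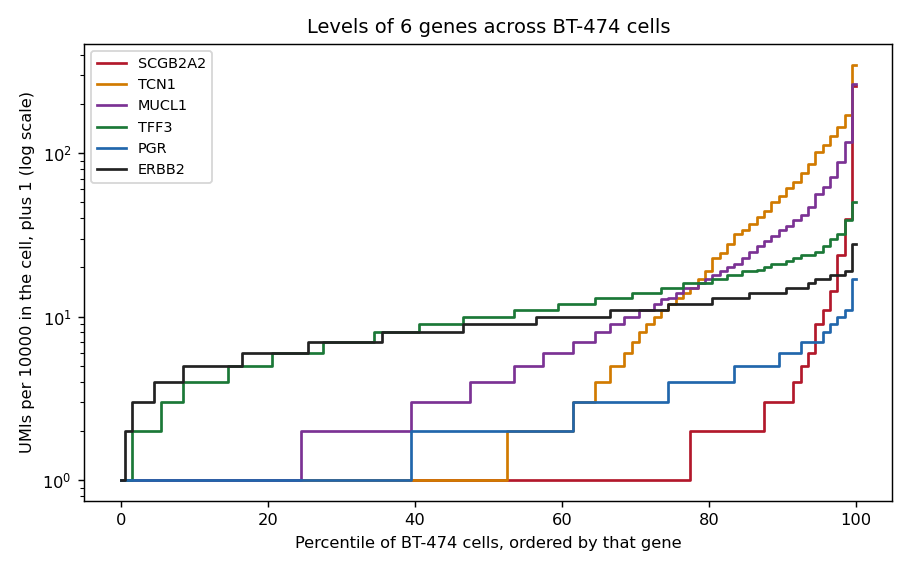
UMIs per 10000 (plus 1, log scale) of 6 genes in BT-474 cells, each gene's cells ordered from lowest to highest and shown by percentile. ERBB2 and TFF3 are present in nearly all cells, and SCGB2A2 rises above 0 in 22.6% of cells.

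Of the 150 genes with the highest dispersion ratios, 97 fell into 6 groups that varied together over the 2221 cells, of which the largest held 69 genes, 28 on the G2/M and 9 on the G1/S list (mean r between members 0.39), led by HIST1H4C, CENPF, AURKA, TOP2A, UBE2C and TPX2. These and the correlations that follow are descriptions over cells of 1 culture that share a library. A group of 9 mitochondrial transcripts had a mean r of 0.52. TCN1, MUCL1, TFF1, TFF3 and MGP, all secreted, formed a group with a mean r of 0.33, highest for TFF1 with TFF3 (0.58), which lie near each other on chromosome 21, and 0.40 for TCN1 with MUCL1. SCGB2A2 was not in it: its r was 0.35 with MUCL1, 0.39 with its secretoglobin partner SCGB1D2 and 0.03 with TCN1, and cells with both SCGB2A2 and TCN1 made 12% of all, where the product of the 2 shares gives 10.7%. SCGB2A2 and TCN1 were thus little correlated over all cells, and their high cells alone were not compared.

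S100A6, ADIRF, ID1 and ID3 made a further group (mean r 0.31), in which the BMP target genes ID1 and ID3 had an r of 0.53, and TCN1 had its lowest correlations over 2661 genes with S100A6, ID3 and ID1 (-0.22, -0.19 and -0.19). CXCL14, IGFBP3, HPGD, RHOBTB3 and CBLN2 made a looser one (mean r 0.24). PGR had an r of 0.30 with GREB1, 0.27 with TFF1, 0.13 with ESR1 and 0.01 with TCN1.

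RPL19 and RPL23 had higher r with other ribosomal protein genes than with ERBB2, which has far fewer UMIs per cell. They shared a group with RPS2, RPS3 and RPL12 (mean r 0.43), while RPL19 had an r of 0.00 with ERBB2, -0.24 with MED1 and 0.29 with the proteasome gene PSMB3 of the same arm, with which RPL23 had -0.27. Among 14 genes of the 17q12 list with a mean of at least 1 UMI, the 91 pairs had a median r of 0.02. Of these pairs 1, ERBB2 with LASP1, was above 0.2 (0.26). Counting error pulls r towards 0 for genes of few UMIs. ERBB2, MED1, GRB7 and IKZF3 had means of 8.3, 6.22, 1.32 and 1.2 UMIs. The low r thus cannot show whether these genes vary together. RPL23 made 7.05% of a cell's ribosomal protein UMIs on average, and the spread of that share was 2.96 times that of counting alone, against 2.08 times for RPL19. Such a ratio rises with the mean, and these 2 genes had the most UMIs of the ribosomal protein genes compared. The standard deviation of the share over its mean was 0.259 for RPL23, 0.261 for RPL41 and 0.127 for RPL19, the lowest of those genes.

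The mitochondrial share, which ran from 9.03% at the 5th to 19.1% at the 95th percentile, moved with few genes. Cells were cut at 13% and 16% into terciles of 744, 743 and 744 cells, and levels are CPM with mitochondrial genes left out of the total. Of 3203 genes at 50 or more in the lowest or highest tercile 6 (0.187%) were at least 1.5-fold higher in the highest and 35 (1.09%) at least 1.5-fold lower. The first count was 27 with a limit of 10% on the mitochondrial share and 3 with an oligo share of at least 95%. The 6 were CXCL14 (28.8, 47.1 and 59.7 from the lowest to the highest tercile, 2.07-fold, 1.87 to 2.29), IGFBP3 (107, 154 and 179), MTRNR2L12, FOSB, MYH14 and C14orf132. Of the 35 lower genes 20 were on the G2/M list, which had 37 members among the 3203 genes. Among the 20 were CDC20 (96.8, 53.1 and 40.3, ratio 0.416), CCNB1 (0.436), CCNB2, PTTG1 and UBE2C, with DEPDC1 beside them. SCGB2A2 was lower (ratio 0.636), and PGR and ERBB2 had ratios of 1.35 and 1.25, which did not pass. The median UMI counts of the terciles were 29126, 27965 and 28429. Cells above 20% were not in the comparison.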

How the data were processed

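The files are 1 matrix of raw UMI counts over 36601 genes and 12 oligos by 17605 barcodes, which the authors deposited. Per the file headers, Cell Ranger 6.1.2 made it, and the submitters' processing notes name the build GRCh38. How cells were called and oligos assigned is not given in the sources here. Counts were summed per oligo group and scaled to CPM. Log2 ratios used a pseudocount of 1 CPM, and the mean of other groups is a mean of log2 values. Poisson intervals (CPM), Clopper-Pearson intervals (shares) and conditional binomial intervals (ratios) are exact. Gene positions are those of GENCODE 29, matched for 34587 of 36601 genes. Doublets (Scrublet in scanpy 1.11.5) were kept in the results and removed in an alternative, and doublets of the same line cannot be seen. Correlations are Pearson's r of log(1 + UMI), and groups are average-linkage clusters cut at 1 minus r of 0.8 with at least 4 genes.

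The genes named are the 6 markers, the 20 highest and 10 lowest of those past the 4-fold rule, in each list up to 4 members with the largest ratio and members of lists under 15 genes, the leading genes of the dispersion ranking, of each covarying group and of the mitochondrial comparison, genes of the highest windows and those beside a threshold. Others, such as AREG, B2M, LDHA, MKI67, PPM1D and the neighbours at the edges of stretches, were chosen after their values were seen. The cells, the gene lists and these rules were chosen with earlier results of these data known. Steps were tested on simulated data. In simulated sums of the 36601 genes, the 4-fold rule called 50 of 50 genes changed 6-fold, 38 of 50 changed 4.5-fold and 0 of 50 changed 2-fold. Scripts ran in Python 3.11.15 with scipy 1.17.1, and edgeR 4.0.16 gave TMM factors for an alternative scaling.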

Additional observations from a re-analysis of the deposited data

How the results depend on the processing

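Alternatives were another filter on UMIs, mitochondrial share, oligo share or doublets, TMM scaling, totals without mitochondrial genes, a pseudocount of 5 CPM, the mean of the cells' CPM, no minimum CPM, windows of 25 genes, the same capture as reference, thinning to 5000 UMIs and another random seed. No called value reversed its direction. At most 10% mitochondrial UMIs left 208 cells and gave 27 genes higher with the mitochondrial share, against 3 with an oligo share of at least 95%, so that count of 6 rests on the filter. With the 10% limit the G2/M median was -0.35, not -1.14, the ratios of SCGB2A2, TMCO1, LGALS1, CYTOR and TIMP1 moved by over 1.5 times, and so did the dispersion ratios of ISG15, MGP and 5 mitochondrial transcripts. A pseudocount of 5 CPM gave 1497 genes at least 2-fold lower and 3 lists at least 1 below the median of all genes, against 6, and shrank the medians of 6 lists and the ratios of low genes. Without a minimum CPM 1796 genes were at least 2-fold higher, and 165 and 62 passed the 4-fold rule. Thinning to 5000 UMIs left 50 genes with a dispersion ratio of at least 2, moved 12 of 27 single values by over 1.5 times, among them the ratios of SCGB2A2 (25.9), TCN1 (27.8), MUCL1 (16.2) and HIST1H4C (6.64), and put PGR at 1.89, below 2. In all, 74 recomputed counts stayed within 1.5 times and 9 did not, and 626 recomputed values of single genes, lists or windows did and 49 did not. TMM factors were 0.901 for BT-474 and 0.963 to 1.16 for the others. No paired analysis was possible because each line was 1 culture and the 2 samples are 2 libraries of the same cells. Counts of few UMIs limit ESR1 and the secreted genes outside BT-474.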

Other observations

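The following values were looked at after the results above were known, and no explanation was tested. APOE, a lipid carrier, was seen in 11 of 2221 thinned BT-474 cells (0.495%), and 3 of them held 271, 389 and 189 of its UMIs out of 32917, 48316 and 31708 in the cell. Their CMO303 shares were 95.9%, 94.6% and 97.1%. None was marked for genes of another line of the same capture, and Scrublet marked none. Genes of the lines of the other capture were not searched for in them. The line group with most APOE-positive cells, at 38.7%, was the HCC38-like group of the other capture.

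RPL19, a ribosomal protein gene of 17q12, was closest to RPS18, RPL13 and RPL8 (r of 0.63, 0.61 and 0.59 over 2221 cells that share a library). It had its lowest values with TOP2A and ASPM (-0.36 and -0.35). SCGB2A2 was closest to MUCL1, then to the uncoupling protein gene UCP2 (0.26), BCAS1 (0.25) and BMP7 (0.23), and PGR had its lowest values with MARCKS and CAMK2N1 (-0.26 and -0.26).

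Windows of 15 genes at least 1 log2 unit below the median of all genes were 118 of 10572 (1.12%). The lowest was on chromosome 3 from SLC4A7 to CRTAP (-1.93), followed by chromosome 7 from SAMD9 to SDHAF3 (-1.84), and 28 were on chromosome 20, which also held the 60 high windows.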
